A study of Mus musculus with 3 samples.

Results

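A set of 205 CpG islands lay in the upper quartile of H3K27me3 enrichment in colonic epithelium of mice that had gone through DSS colitis, and outside it in untreated mice of both ages. They were chosen from 13729 autosomal regions. Neighbouring probes of a CpG island array were joined while their starts lay within 500 bp, and joined regions with at least 3 probes were kept. Each region took the median log2 ratio of immunoprecipitate over input of its probes, and this value was turned into a percentile among all regions of the same array. A region entered the set when its percentile was at or above 75 on the DSS array and below 75 on both untreated arrays. These percentiles chose the regions, so all percentiles and ratios given below describe them and are not tested.

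All animals were male BALB/c mice, and each of the 3 arrays carried chromatin pooled from 3 of them. Colonic crypt epithelium came from untreated animals aged 7 weeks, from untreated animals aged 23 weeks, and from animals killed at that later age that had received 2% dextran sulfate sodium (DSS), a polymer that injures the colonic lining, for 1 week from the age of 7 weeks. The DSS array therefore shows epithelium long after the exposure ended. The labels name no clone, transgene or sorted cell population. In pooled epithelium, more H3K27me3 in each cell and the same amount in more of the cells cannot be told apart, and the cell type could not be checked against marker genes because the array files pair no probe with a gene.

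H3K27me3 is the trimethylated form of a lysine in the tail of histone H3. Polycomb repressive complex PRC2 deposits it, mainly at CpG islands, the CpG-rich stretches that hold many promoters. Islands of developmental regulators carry it in most differentiated tissues, including intestinal epithelium, where it accompanies silent or weakly transcribed genes, while the islands of broadly transcribed genes usually lack it. In mouse colon, islands that carry the mark have been studied as places where DNA methylation accumulates during chronic inflammation, which gives a reason to ask which islands rank higher after colitis.

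The immunoprecipitate was in the red channel and the input in the green channel of every array. A higher ratio thus means more immunoprecipitate relative to input, and a lower input also raises it. Median processed intensities of autosomal probes were 742 to 848 in the immunoprecipitate and 624 to 782 in the input, and no probe was saturated. The 3 arrays ranked the regions alike, with Spearman's rho over regions, which are not independent replicates, of 0.957 between both untreated arrays, 0.958 between 7 weeks and DSS and 0.944 between untreated 23 weeks and DSS. The median region moved by 4.07, 4.04 and 4.73 percentile points between these pairs. Each group has a single array, so differences have no replicate check and no p-value is given. No slide held more than 1 of the arrays, so the slide and the group cannot be told apart. The untreated 23-week array had 574 autosomal probes with an outlier flag, against 2 at 7 weeks and 7 after DSS.

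More regions stood in the upper quartile on the DSS array alone than on either untreated array alone, an order that turned against the untreated 23-week array with loess within each array, which fits the ratio against intensity. The 205 regions were 1.49% of all regions. The same rule with the 7-week array in the place of the DSS array gave 132 regions (0.961%), and with the untreated 23-week array 100 regions (0.728%). With loess the counts were 231 for DSS, 175 for 7 weeks and 279 for untreated 23 weeks, and 44 of the 205 regions still entered. In the opposite direction, 196 regions (1.43%) were in the upper quartile on both untreated arrays and outside it after DSS. Ranking puts the same number of regions above the line on every array, so regions entering and leaving it between any pair of arrays balance by construction. A total of 3014 regions (22%) were in the quartile on all 3 arrays and 9868 (71.9%) on none. When the untreated 23-week array was left out and a region only had to lie below the line at 7 weeks, 328 regions entered. When the 7-week array was left out, 296 entered.

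Most of the 205 regions lay close to the line in every group. The untreated percentiles had a median of 71.1 at 7 weeks (26.7 to 74.95) and of 71.3 at 23 weeks (33.9 to 74.9), and the DSS percentiles a median of 77.5 (75.01 to 96.1). A total of 92 regions were at or above percentile 70 on both untreated arrays, and 160 of the 205 stayed below percentile 80 after DSS. The rise of a region, taken as its DSS percentile minus the higher of its untreated percentiles, had a median of 6.10 points, and 118 regions rose by at least 5 points, while 87 rose by less. Over all regions at any level, 12% were at least 5 points above both other arrays on the DSS array, 8.91% on the 7-week array and 12.3% on the untreated 23-week array. Against each untreated array on its own, the median region of the set was 7.60 points higher after DSS than at 7 weeks and 6.91 points higher than at 23 weeks untreated. The median shift of all regions, without its sign, was 4.04 and 4.73 points for these pairs.

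**Figure D1:**
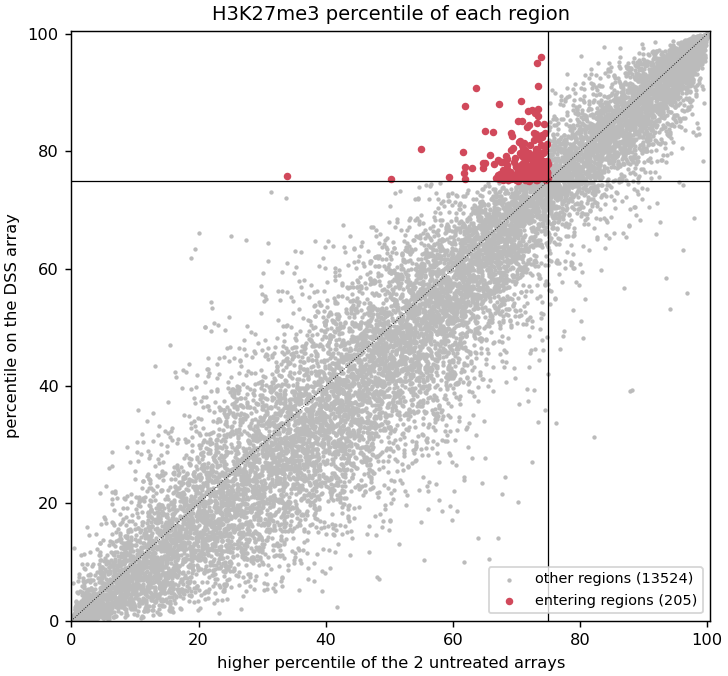
Percentile on the DSS array (vertical axis) against the higher percentile of the untreated arrays (horizontal axis) for all 13729 regions; grey points are other regions, red points the 205 entering regions, solid lines mark percentile 75 and the dotted line equal percentiles. Most red points crowd the corner where both lines cross, and a few lie far to the left, the lowest with an untreated percentile of 33.9.

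A minority of the regions moved by more. A rise of at least 10 points was seen in 49 of the 205 regions (23.9%), against 8 of 132 regions (6.06%) in the set of the 7-week array alone and 5 of 100 (5%) in that of the untreated 23-week array alone. Rises of at least 20 points were seen in 8, 2 and 0 regions of these sets. Over all regions at any level, 4.67% were at least 10 points above both other arrays on the DSS array, 2.37% on the 7-week array and 5.14% on the untreated 23-week array. For 20 points these shares were 0.699%, 0.211% and 0.714%. A wide move on the DSS array was thus about as frequent over all levels as on the untreated 23-week array. Within the sets near the line it was more frequent on the DSS array. The same percentiles chose these sets, and the margins were not counted with loess, which gave the untreated 23-week array the most regions. With a gap around the line, at or above percentile 80 on the high array and below 70 on the others, 10 regions remained for DSS (0.0728% of all), 1 for 7 weeks (0.00728%) and 0 for untreated 23 weeks.

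**Figure D2:**
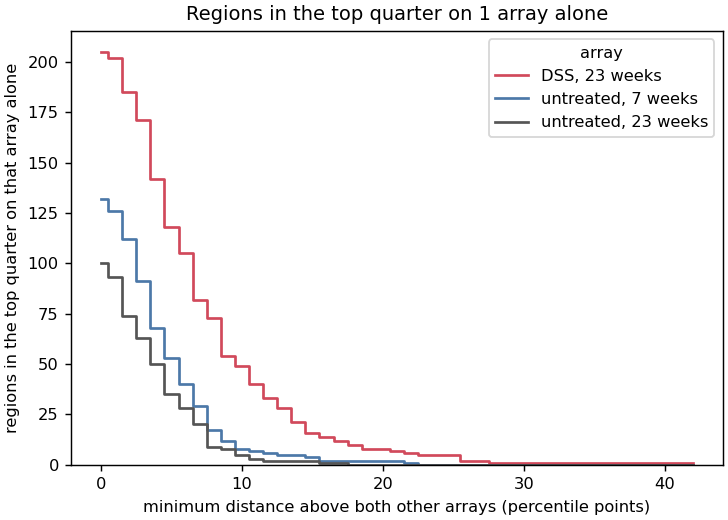
Number of regions in the upper quartile on 1 array alone (vertical axis) that exceed both other arrays by at least the given number of percentile points (horizontal axis), with a line for each array. The DSS line starts at 205 regions and keeps 49 at 10 points, where the 7-week line keeps 8 and the untreated 23-week line 5.

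Regions nearer the line in untreated mice entered more often. Of 709 regions whose higher untreated percentile was between 70 and 75, 151 (21.3%) entered on the DSS array. From percentiles 65 to 70 it was 41 of 782 (5.24%), from 60 to 65 it was 9 of 776 (1.16%), and from 50 to 60 it was 3 of 1518 (0.198%). Only 1 of 6288 regions below the median of both untreated arrays entered. In the same bins for the 7-week array the shares were 17.1%, 1.13%, 0.131% and 0%, and for the untreated 23-week array 12%, 1.69%, 0.268% and 0%. The DSS array thus had the highest share in each of these bins, which were not counted with loess.

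A higher rank on the DSS array did not mean a higher ratio. The log2 ratios of each array, centred on its median probe, spread over different ranges: the interquartile range was 1.98 at 7 weeks, 2.56 on the untreated 23-week array and 1.56 on the DSS array. Percentile 75 accordingly corresponded to a centred log2 ratio of 0.72, 1.04 and 0.53. The 205 regions had a median centred ratio of 0.48 (SD over regions 0.26) at 7 weeks, 0.74 (0.32) at 23 weeks untreated and 0.64 (0.17) after DSS. On this scale their median difference, taken probe by probe, was 0.08 from 7 weeks to DSS, with 142 regions above 0, and -0.12 from untreated 23 weeks to DSS, with 76 regions above 0. Over all regions 48.9% and 50.6% were above 0 in these comparisons, and 69 of the 205 regions (33.7%) were higher than both untreated arrays against 37.8% of all regions.

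After each array was brought to an interquartile range of 2.03, the same regions were higher after DSS than in either untreated pool. The median difference was then 0.26 against 7 weeks and 0.21 against untreated 23 weeks, with 178 and 171 of the 205 regions above 0, against 36% and 35.9% of all regions. Of the 205, 153 were higher than both untreated arrays, against 19.7% of all regions. Quantile normalisation gave 0.31 and 0.27. The difference from untreated mice of the same age was also positive with normexp background correction (0.030) and with loess (0.26), and negative in the authors' deposited table (-0.14). Its direction thus depended on the processing. The shares over the 205 regions follow in part from the rule, and nothing is read from them beyond this.

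**Figure D3:**
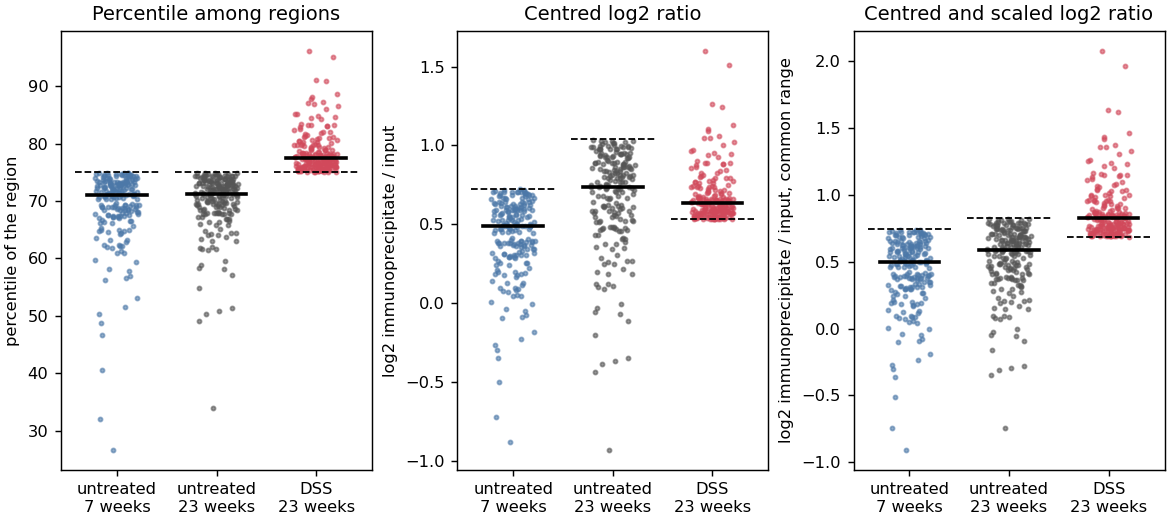
Values of the 205 entering regions on the 3 arrays (1 point per region, horizontal bars are medians, dashed lines are percentile 75 on each array) as percentiles, as centred log2 ratios and as centred log2 ratios scaled to a common interquartile range. By percentile the DSS points lie above all untreated points, as the rule requires. By centred ratio the DSS median of 0.64 lies below the untreated 23-week median of 0.74.

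Few regions gained in ratio by a large step without scaling. A centred difference of at least 1, a 2-fold higher ratio, was seen in 4 of the 205 regions against 7 weeks (0.306% of all regions) and in 5 against untreated 23 weeks (1.16% of all regions). After scaling it was 14 regions (0.291% of all regions) and 9 regions (0.146%). The difference exceeded its own SD over the probes of the region against both untreated arrays in 21 regions before scaling (2.83% of all regions) and in 47 after it (1.58% of all regions). Probes agreed on the direction to a varying degree. In 42 of the 205 regions every probe had a higher percentile among probes on the DSS array than on both untreated arrays (1.57% of all regions), in 70 at least 80% of the probes did (3.46% of all regions), and in 49 fewer than 50% did (73.2% of all regions). Below, a probe counted as higher is one whose percentile among probes was above that on both untreated arrays.

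The immunoprecipitate channel moved with the rise in more of the regions than the input channel, but the ratio of these channels chose the regions. When each channel was ranked on its own, the immunoprecipitate percentile had a median of 67.8 at 7 weeks, 69.5 at 23 weeks untreated and 74.1 after DSS. The input percentile had a median of 67.2, 63.3 and 66.9. The immunoprecipitate ranked higher on the DSS array than on both untreated arrays in 121 of the 205 regions (34.4% of all regions), and lower than on both in 27 (36.9% of all regions). The input ranked lower than on both in 69 regions (33.7%, against 30.3% of all regions) and higher in 58 (28.3%, against 28.4%). Both input shares were thus near those of all regions. In 89 regions the immunoprecipitate was higher without a lower input, in 37 the input was lower without a higher immunoprecipitate, and in 32 both held (5.16% of all regions). The remaining 47 regions met neither condition. No share over all regions was counted for the 89, 37 and 47 regions, and nothing is read from these counts. Over all regions the log2 immunoprecipitate had an SD of 1.75 at 7 weeks, 1.86 at 23 weeks untreated and 1.53 after DSS. For the log2 input it was 0.76, 0.63 and 0.81. In the set of the 7-week array alone, the median immunoprecipitate percentiles in this order were 77.7, 73.5 and 71.0. In that of the untreated 23-week array alone they were 73.4, 77.1 and 69.5, so each was highest on the array that chose the set. The part of each channel in these rises was not tested.

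**Figure D4:**
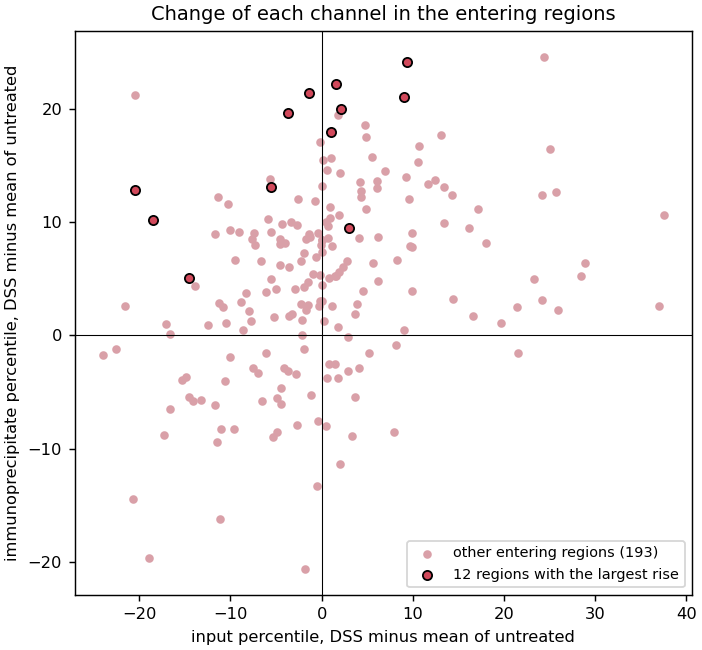
Change of each channel in the 205 entering regions, as the percentile after DSS minus the mean of both untreated percentiles, for the input (horizontal axis) and the immunoprecipitate (vertical axis); outlined points are the 12 regions with the largest rise. All 12 lie above 0 for the immunoprecipitate, and 3 of them lie more than 10 points below 0 for the input.

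The largest rise was on chromosome 15 from 81874223 to 81874653 (3 probes; coordinates are those of the array files, which name no genome build). Its percentile was 26.7 at 7 weeks, 33.9 at 23 weeks untreated and 75.9 after DSS, a rise of 42 points that carried it just over the line. The centred log2 ratio was -0.88 ± 1.32, -0.93 ± 1.66 and 0.56 ± 1.19 (± gives the SD over probes throughout). The ratios thus spread widely over the probes of each array. All 3 probes were higher after DSS, and the probe-wise difference was 1.69 ± 0.72 against untreated mice of 23 weeks. The immunoprecipitate percentile went from 33.9 and 37.7 to 55.8, while the input percentile was 52, 48 and 52.1. With the mean of its probes in place of the median the region did not enter.

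The second was on chromosome 4 from 53180805 to 53181379 (5 probes). It stood at percentiles 63.2 and 63.7 in untreated mice of 7 and 23 weeks and at 90.8 after DSS. Its centred ratios were 0.13 ± 0.41, 0.21 ± 0.64 and 1.25 ± 0.39, and 4 of 5 probes were higher than on both untreated arrays. This was an island at middling level in both untreated pools and above percentile 90 after DSS. The immunoprecipitate percentile was 35.8, 57.6 and 68 and the input percentile 9.69, 30.3 and 18.6. It did not enter with loess.

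A region on chromosome 12 from 8999743 to 9000335 (6 probes) rose from percentiles 61.8 and 62 to 87.8, with centred ratios of 0.07 ± 0.86, 0.12 ± 0.68 and 1.09 ± 0.56. It entered under each of the 9 other ways of processing that kept the line at 75. Its highest probe in untreated mice had centred ratios of 1.35 and 1.43, against 1.23 after DSS, and the probes next to it on either side were higher after DSS than on both untreated arrays. The immunoprecipitate percentile was 47.7, 61.2 and 59.5 and the input percentile 45, 59.3 and 37.6.

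On chromosome 11 from 119026631 to 119027040 the outer probes carried the rise. The region stood at percentiles 32.1, 54.9 and 80.5. Its middle probe was at 1.63 and 1.45 in untreated mice and 1.04 after DSS, and the outer probes went from between -0.74 and -0.20 to 0.77 and 0.55. The middle probe was thus above the array median in every group, and only the outer probes were higher after DSS. Loess took the rise to -3.07 points.

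On chromosome 1 from 182650528 to 182650925 (3 probes) the percentiles were 50.3, 49.1 and 75.3. The input was faint here, at percentiles 5.10, 1.84 and 5.01 of all regions, and the region lies 486 bp from its nearest neighbour. It entered in only 4 of the 9 other ways of processing, and no longer when probes were joined over a longer or a shorter distance.

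**Figure D5:**
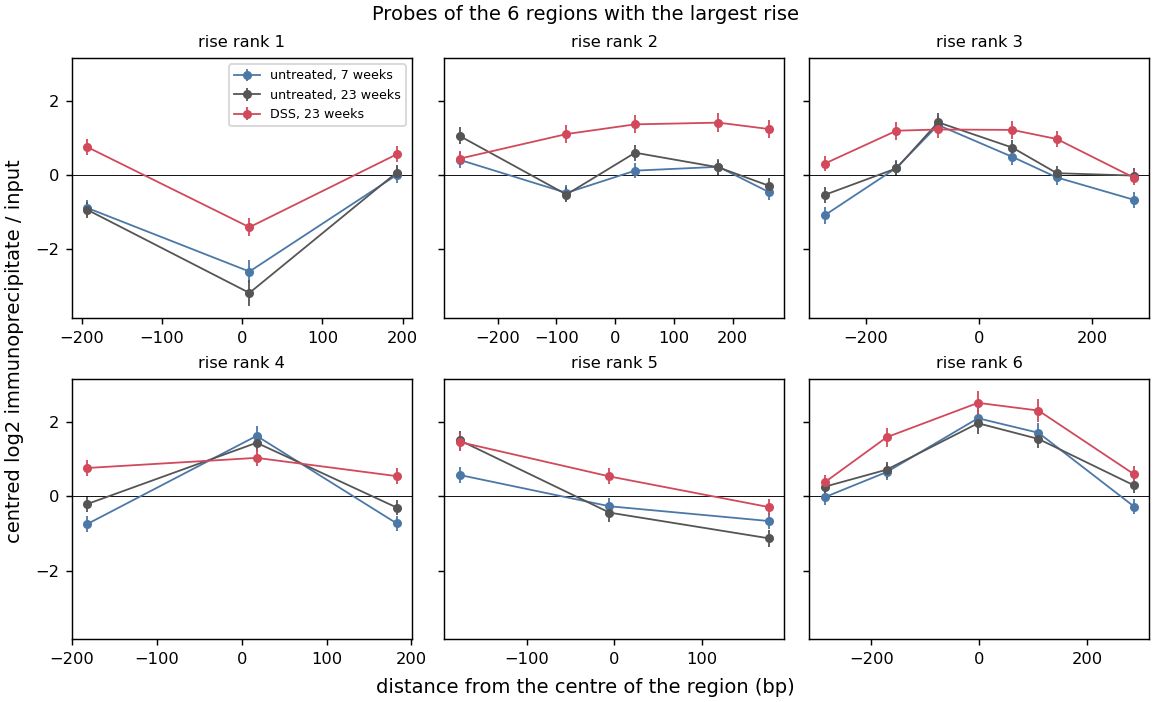
Centred log2 ratio (vertical axis) of each probe against its distance from the centre of the region in bp (horizontal axis) in the 6 regions with the largest rise, in order of rise; colours are the arrays and bars the error of the scanner software for that spot. At rise ranks 3 and 4 the DSS values spread less over the probes (SD 0.56 and 0.25) than the untreated ones (0.68 to 1.37). The median SD over all regions was also lower on the DSS array (0.76) than at 7 weeks (0.94) and at 23 weeks untreated (0.89).

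The highest percentiles after DSS among the 205 were on chromosomes 11 and 14. On chromosome 11 from 101903220 to 101903837 (5 probes) the percentiles were 73.9, 71.1 and 96.1 and the centred ratios 0.66 ± 1.05, 0.72 ± 0.77 and 1.60 ± 0.97. All 5 probes were higher than on both untreated arrays. A second entering region lay 583 bp further on, from 101904420 to 101904974 (7 probes), with percentiles of 62, 50.4 and 77.4, and 6 of its 7 probes were higher. Its centred difference was 1.02 ± 0.68 against 7 weeks and 1.13 ± 0.69 against untreated 23 weeks. Both regions of the adjacent pair thus rose on the same array, and at 583 bp apart they are not independent measurements. Neither entered with loess, and the first also did not with normexp background correction or with the mean of probes.

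On chromosome 14 from 54807927 to 54808453 (5 probes) the percentiles were 73.3, 72.7 and 95.05. The centred ratios of 0.62 ± 0.18 and 0.85 ± 0.19 in untreated mice and 1.51 ± 0.47 after DSS had a small spread over probes. All 5 probes were higher by percentile and 4 of 5 by centred ratio, the middle probe having 0.76 after DSS against 1.10 at 23 weeks untreated. The immunoprecipitate percentile was 75.4, 75.8 and 96.6 and the input percentile 80.8, 76.1 and 87.5. The input was thus higher after DSS as well, and the immunoprecipitate rose further. This region entered under each of the 9 other ways of processing.

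Another region of chromosome 14, from 57029021 to 57030998, carried the most measurements behind a large rise. Its 17 probes cover 1978 bp, and 14 of them were higher by percentile on the DSS array than on both untreated arrays. By centred ratio 12 of the 17 were. The percentiles were 65, 58.9 and 83.5 and the centred ratios 0.19 ± 0.79, -0.03 ± 0.68 and 0.90 ± 0.49. The difference was 0.81 ± 0.79 against 7 weeks and 1.06 ± 0.83 against untreated 23 weeks. The largest single steps were in probes that were below the array's median in untreated mice, as in the probe 80 bp before the centre, which went from -1.57 and -0.92 to 1.21. The immunoprecipitate percentile was 65, 62 and 81.4 and the input percentile 65.4, 76.8 and 72.1. It entered under each of the 9 other ways of processing.

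The other regions among the 12 with the largest rise had 3 to 5 probes. On chromosome 5 from 114832544 to 114832764 (3 probes) the percentiles were 67.2, 63.1 and 88.1, and the untreated 23-week input was high there (percentile 94.9, against 65.9 at 7 weeks and 61.9 after DSS). On chromosome 12 from 14177298 to 14177881 (5 probes) they were 40.6, 61.6 and 79.9, with all 5 probes higher but an input percentile between 4.46 and 9.83. The untreated arrays themselves thus differed there by more than the rise of 18.3 points. On chromosome 7 from 24724111 to 24724388 (3 probes) the percentiles were 68.2, 70.8 and 88.7, and on chromosome 8 from 12915628 to 12916012 (3 probes) 73.4, 65.8 and 91.1, with all probes of both higher. The region on chromosome 8 did not enter with loess, and that on chromosome 12 did not with the mean of probes or the deposited ratio table.

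Across these 12 regions the immunoprecipitate ranked higher after DSS than on both untreated arrays in all but 2, both on chromosome 12 (at 8999743 and 14177298), where the untreated 23-week value was slightly higher. Untreated percentiles of the 12 ran from 26.7 to 73.9. Large rises thus came from islands next to the line, from islands at middling level and, for the largest rise, from an island low in the ranking.

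Entering regions lay near each other in 9 places where the edges of a pair were within 50 kb, of which 8 are described here. Besides the pair on chromosome 11 at 101903220, the closest were on chromosome 2 from 11419075 to 11421255 (856 bp apart) and on chromosome 12 from 14175177 to 14177881 (1067 bp apart). On chromosome 2 the region of 11 probes had percentiles of 66.7, 70.6 and 79.8 and its neighbour of 3 probes 73.4, 72.2 and 86.1. On chromosome 12 the larger region, of 11 probes, barely crossed the line (70.7, 73.2 and 75.2) beside the region of large rise described above. In both places the larger of the neighbours rose less. With loess neither of the larger regions entered, nor did the 3-probe neighbour on chromosome 2, while the smaller region on chromosome 12 did.

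Pairs also lay on chromosome 2 from 168441347 to 168443922 (1895 bp apart) and chromosome 5 from 24111504 to 24115073 (1934 bp apart). The first pair reached percentiles of 75.1 and 79.8 after DSS and the second 78.9 and 78.3. On chromosome 10 the member from 78155458 to 78156140 (6 probes) rose from 63.6 and 70.9 to 85.2, and its neighbour 27362 bp away from 68.7 and 69.5 to 75.5. The first of these entered under all 9 other ways of processing and the second under 3. The remaining pairs, on chromosome 8 from 73781546 to 73794982 and chromosome 11 from 102209333 to 102255085, had other regions between them and DSS percentiles of 76.3 to 77.3.

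Of the 88 entering regions with another region within 20 kb, the nearest was itself an entering region in 12 (13.6%). Among the nearest neighbours of all regions the share was 1.56%. The 12 are adjacent pairs counted from both members, and most of these pairs lay 583 to 1934 bp apart. Whether such pairs are parts of the same island was not tested. For the sets of the 7-week and the untreated 23-week array alone, no share of neighbours from the same set was counted. Whether this grouping is particular to the DSS array was thus not tested. The shares of neighbours in the upper quartile on all arrays were alike (29.5% against 28%), but fewer neighbours lay outside it on all arrays (51.1% against 66%). Part of this gap is by construction, since the 12 neighbours that were entering regions cannot lie outside it on all arrays. For the sets of the 7-week and the untreated 23-week array alone, 60.3% and 44.4% of neighbours lay outside it on all arrays. The 76 neighbours that were not entering regions themselves had median percentiles of 57.4 at 7 weeks, 60.4 at 23 weeks untreated and 58.7 after DSS, against 52.6, 52.8 and 51.5 for such neighbours of all regions. They were above both untreated arrays in 28 of 76 cases (36.8%), against 32.2% of such neighbours of all regions. The median rise of these neighbours was -2.32 points, against -2.33 for such neighbours of all regions.

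The 3 entering regions with the most probes were the 17-probe region of chromosome 14 and 2 others. On chromosome 4 from 131108373 to 131110667 (19 probes) the percentiles were 72.8, 73.2 and 80.5 and the centred ratios 0.59 ± 0.94, 0.89 ± 1.14 and 0.77 ± 0.85. On chromosome 11 from 59991827 to 59993556 (15 probes) they were 67.4, 66.3 and 76.2, with ratios of 0.30 ± 0.55, 0.38 ± 0.49 and 0.58 ± 0.38. In the first 16 of 19 probes and in the second 10 of 15 were higher after DSS by rank. With loess neither entered.

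At the edge of the set the values of members and other regions met. The lowest DSS percentiles inside were 75.01 on chromosome 2 from 151985082 to 151985740, 75.05 on chromosome 2 from 168441347 to 168441735 and 75.10 on chromosome 11 from 121203736 to 121204443. Just outside, with both untreated values also below the line, were regions on chromosome 7 from 30243652 to 30244281 (74.99 after DSS, after 73 and 72.5), chromosome 9 from 54946995 to 54948334 (74.97) and chromosome 16 from 97275450 to 97275998 (74.94). The highest untreated percentiles inside were 74.95 on chromosome 4 from 103117588 to 103118157, 74.91 on chromosome 14 from 61509511 to 61510176 and 74.89 on chromosome 10 from 80597519 to 80597871. The first of these rose by only 0.54 points, and none of its 4 probes ranked higher after DSS than on both untreated arrays.

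Entering regions were smaller than the average region, which the rule did not ask for. Their median number of probes was 5 (3 to 19) and their median length 532 bp, against 6 probes and 665 bp for all regions. Regions of exactly 3 probes made up 23.9% of the set and 12% of all regions. Of the 3-probe regions 2.98% entered after DSS, of those with 4 or 5 probes 1.84%, with 6 to 8 probes 0.956% and with 9 or more 0.973%. In the same order the shares on the untreated 23-week array alone were 1.64%, 0.955%, 0.511% and 0.227%. On the 7-week array alone they were 1.82%, 0.822%, 0.734% and 1.04%, so that there only the 3-probe regions stood out. A median over few probes moves more with each probe, and the part of this in the set was not tested. The distance to the nearest region was 27362 bp in the median, close to the 26198 bp of all regions.

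The set was spread over all 19 autosomes. The shares of a chromosome's regions that entered ran from 0.584% on chromosome 13 (3 of 514, Wilson 95% interval 0.199% to 1.70%) and 0.741% on chromosome 5 (7 of 945, 0.359% to 1.52%) to 2.63% on chromosome 14 (12 of 457, 1.51% to 4.53%) and 2.90% on chromosome 12 (15 of 517, 1.77% to 4.73%). The intervals for chromosomes 12 and 14 lay above the 1.49% of all autosomes, that for chromosome 14 only just. The intervals cover counting error only, treat regions as independent although some entered in adjacent pairs, and are not adjusted for the 19 chromosomes. Chromosome 11 held the most entering regions, 24 of 1202, and chromosome 4 held 20 of 974.

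Faint spots were rarer in the set than among all autosomal probes, while irregular spots were not. The rule chose regions of high ratio, and the set is not compared here with other regions of like level. Of its 1140 probes, 2 at 7 weeks, 3 at 23 weeks untreated and 4 after DSS were not well above background, at most 0.351% against 2.41% to 5% of all autosomal probes. Outlier flags fell on 8 of the 1140 probes, all on the untreated 23-week array, where 574 of all 94499 autosomal probes had one. Flagged spots were thus about as frequent in the set as elsewhere. The median error of a single probe by the scanner software was 0.21 to 0.22 on the log2 scale in these regions. That is smaller than the median SD over the probes of a region, which was 0.63, 0.55 and 0.49.

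Of the 205 regions, 14 entered under all 9 other ways of processing that kept the line at 75, and 25 under all of them or all but the minimum of 5 probes. Besides the 3 regions of large rise and the region at 78155458 on chromosome 10 given above, the 14 included a region on chromosome 17 from 27162245 to 27162839 (percentiles 69.4, 71.8 and 87) and one on chromosome 15 from 64211800 to 64212742 (70.3, 69.3 and 85.3), which were chosen after their values were seen. A region of chromosome 8 from 76248607 to 76250045, also chosen so, had 13 probes and percentiles of 68.4, 67.7 and 79.2. All 14 had at least 5 probes, since one of the ways asks for it, and their rises ran from 8.45 to 25.9 points.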

How the data were processed

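Each array was 1 hybridisation of chromatin from a pool of 3 mice. The deposited intensities were made with Agilent Feature Extraction (10.7.3.1 per the file headers, 9.1 per the submitters' processing notes), which subtracts background and applies a linear dye normalisation, per the file headers. Log10 ratios as deposited equalled those of the processed intensities within 0.001 at 99.99% or more of probes. The authors' deposited table of linear ratios, with a median of 1 on each array and its scaling and smoothing unknown, was an alternative.

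Of 97651 probes, 94499 on the 19 numbered chromosomes were used, without a filter, and 93029 fell into regions. Log2 ratios were centred on each array's median probe, or scaled to a common interquartile range. Percentiles are ranks over all regions. Python 3.11.15, pandas 2.3.3 and limma 3.58.1 (normexp with offset 50, loess, quantile) were used, and the region rule was tested on simulated data.

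Regions were named by a fixed rule: the 12 with the largest rise, up to 8 groups within 50 kb, the 3 with most probes, and 3 on each side of the line. The members and lists were chosen with earlier results of these data known. No genome build is named, so genes and sequences were not analysed here.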

Additional observations from a re-analysis of the deposited data

Results flagged for a closer look

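Data outside the rule also held values at or above percentile 75 on the DSS array alone, in each case more than on either untreated array alone, with percentiles read from the autosomal regions of the same array. On the X chromosome, 9 of 390 regions did so (2.31%), against 5 on the 7-week and 5 on the untreated 23-week array alone. Among autosomal regions of 1 or 2 probes it was 18 of 899 (2.00%), against 14 and 11. Among 492 probes with no position on an assembled chromosome it was 22 (4.47%), against 13 and 17. These differences of a few features were not tested.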

How the results depend on the processing

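The count of entering regions stayed within 1.5 times of 205 with other joining distances, the mean of probes, dim or flagged probes left out, lines at 70 or 80, normexp, loess, the X chromosome or the deposited table. It was 114 with at least 5 probes and 10 with the gap from 70 to 80. On the untreated arrays alone these settings gave 84 and 1 regions for 7 weeks and 59 and 0 for 23 weeks. The mean of probes gave 86 for 7 weeks and loess 279 for untreated 23 weeks, more than its 231 for DSS. Leaving out an untreated array, chosen after seeing the data, gave 296 to 328. The median rise was 17.7 points with the gap and otherwise 4.04 to 6.47. The median log2 difference from untreated 23 weeks (-0.12) turned positive with scaling (0.21), quantile normalisation (0.27), normexp (0.030) and loess (0.26). It stayed negative without centring (-0.064) and in the deposited table (-0.14).

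A similar count did not mean the same regions: of the 205, 44 still entered with loess, 45 and 54 with the line at 80 and 70, 109 with the mean of probes, 130 in the deposited table, 146 with normexp and 165 without dim or flagged probes. Named rises turned negative in 14 of 283 values. With the mean of probes they were -14.7 (chromosome 2 at 151985082), -4.58 (chromosome 4 at 103117588) and -0.51 (chromosome 11 at 102209333). With normexp the region at 103117588 had -0.93. With loess they were -1.49 (chromosome 2 at 11419075), -0.44 (103117588), -8.29 (chromosome 5 at 24111504), -5.34 (chromosome 8 at 73794487), -1.87 (chromosome 11 at 59991827), -3.07 (chromosome 11 at 119026631), -4.13 (chromosome 12 at 14175177) and -0.75 (chromosome 14 at 61509511). In the deposited table they were -18.6 (151985082) and -7.23 (103117588). The cause was not tested. No paired analysis was possible because each group has 1 array. The signal over background limited few of the 1140 probes.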
